A study of Ictidomys tridecemlineatus with 15 samples.

Results

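Nascent transcription of 107 genes of the ubiquitin system was followed in the liver of hibernating 13-lined ground squirrels. The genes were chosen by name from the 4705 units of the count table that carry a single gene name: ubiquitin-conjugating enzymes and their variants (Ube2, 16 genes), HECT-type ligases (Ube3, 3), cullins (Cul, 3), F-box proteins (Fbxo, 13; Fbxl, 6; Fbxw, 1), ring finger proteins (Rnf, 30), tripartite motif proteins (Trim, 13), ubiquitin-specific proteases (Usp, 20) and ovarian tumor-type deubiquitinases (Otud, 2). A name does not fix a function: Usp6nl entered by its name although it encodes a GTPase-activating protein and no protease, and Fbxo18 encodes a DNA helicase that carries an F-box. The livers came from 14 female, laboratory-housed squirrels of a breeding colony, and each library is a separate animal. The paper states that body temperature was taken with an implanted telemeter or iButton, or with a rectal probe. The labels name no drug and no genetic change, and ages were not given in the sources used here. Summer active squirrels (SA, 3 libraries) were warm and had not started to hibernate. Interbout aroused squirrels (IBA, 3 libraries) were warm between bouts of torpor in winter, those in entrance (Ent, 3 libraries) were cooling, and those in early torpor (ET, 3 libraries) and late torpor (LT, 2 libraries) were cold. Global run-on sequencing (GRO-seq) labels RNA on polymerases already engaged in isolated nuclei, so a count reports polymerases on the counted unit and not the amount of mRNA or protein. For many genes the authors extended the unit past the annotated end of the gene, using nascent transcription merged over all states. Such a unit can also count polymerases beyond the gene, which the paper reports to reach further in torpor. The part of these reads in the changes below was not tested.

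Ubiquitin is a small protein that is attached to other proteins in a cascade. An activating enzyme (E1) charges a conjugating enzyme (E2), and a ligase (E3) brings the charged E2 to its substrate. RING-type ligases, among them most Rnf and Trim proteins, pass ubiquitin straight from the E2, whereas HECT-type ligases carry it themselves. Cullins are the scaffolds of multi-subunit ligases in which F-box proteins choose the substrate, and deubiquitinases such as the Usp and Otud proteins take ubiquitin off again. The marks direct proteins to the proteasome, to lysosomes, to sites of DNA damage or to signaling complexes, and in liver they take part in protein turnover and in the control of metabolic enzymes.

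Library totals ranged from 3713883 to 8884763 counts on gene bodies, and the mean count per library of a member lay between 111 and 4545 (median 512), so that no member was lost to a filter on low counts and the smallest count of any member in any library was 40. Levels below are CPM, the counts of a unit relative to the library total scaled by the TMM method and multiplied to a fixed sum, and a difference was called at an adjusted p of 0.001 or less over all units. A rise or fall is therefore a change relative to the rest of the library, also under the other scalings below. The paper states that such normalization hides changes in total transcription between states. It cites an earlier run-on study in which liver transcription was higher in IBA than in LT. Total transcription was not measured here. The tissue label was checked against its markers: 7 of 12 hepatocyte markers had a single-gene unit, and their summed level ranged from 11688 to 22572 CPM in SA, 10245 to 14443 in IBA, 7527 to 9569 in Ent, 3788 to 6132 in ET and 4787 to 7222 in LT. The 7 did not move alike, and 4 were called among the 5 states. Cps1 had a mean of 7452 CPM in SA and 1046 in LT, whereas Apob had 3228 and 3781. Of the other cell types of liver, endothelial cells had 2 of 7 markers (132 to 201 CPM in SA, 166 to 184 in IBA, 153 to 186 in Ent, 84.7 to 139 in ET and 73.8 to 91.2 in LT, summed) and cholangiocytes 1 of 5, Sox9 (25.9 to 41.0 CPM in SA, 16.5 to 36.0 in IBA, 29.8 to 46.1 in Ent, 10.9 to 18.1 in ET and 7.07 to 10.1 in LT), while the macrophage, stellate, lymphocyte and erythroid lists had 0. In bulk tissue, fewer cells of a type and less RNA made per cell cannot be told apart, and the part of these marker levels in the changes below was not tested. The ET livers were all collected in a season that supplied no other library, so that ET and its season cannot be told apart. The IBA and LT libraries came from different seasons, and SA replicate 1 was the only warm library from the season of LT.

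The share of ubiquitin genes that changed was near that of all units, and the changes ran in both directions. Among the 5 states, 29 of 107 members were called, where 26.4% of all single-gene units were; the count was 14 to 18 when any IBA library, ET replicate 2 or 3 or either LT library was left out. From warm (SA and IBA) to cold (ET and LT), 22 members rose and 16 fell, 38 of 107 in all, beside 37% of all units (18.3% higher, 18.7% lower). At an adjusted p of 0.05 or less, 42 were higher and 29 lower, 71 in all, beside 65.1% of all units (30.1% higher, 35% lower). The median log2 fold change was 0.15 over the members and -0.07 over all single-gene units. Over the 107 members the summed level lay between 13337 and 14398 CPM in SA, 13137 and 13844 in IBA, 13165 and 14178 in Ent, 14820 and 15391 in ET, and 14365 and 15206 in LT, while the largest warm to cold change of a single member was 4.85-fold. The 5 cold libraries did not overlap the 6 warm libraries in 43 members, 23 above and 20 below. This held for 40.5% of all units (20.3% above, 20.2% below). The 43 include all 22 risers and all fallers but Rnf144b. Among all called units, 799 of 859 risers and 778 of 881 fallers did not overlap either. The calls were made on the same libraries, so this is a description. By class, 25% of Ube2, 46.2% of Fbxo, 30% of Rnf, 30.8% of Trim and 40% of Usp genes were called. The split depended on scaling. When libraries were scaled to the number of uniquely mapped reads, 34 members were higher and 10 lower, and the median of all units moved to 0.16; each of the 38 kept its sign. Cul9, Fbxl4, Fbxo18, Fbxo46 and Ube2d3 lost the call without LT replicate 1 alone, with adjusted p from 0.00103 to 0.00151, and Fbxo38, Rnf144b, Rnf40, Trim25 and Ube2z in at least 7 of 14 such fits, with adjusted p up to 0.00591; 27 members were called in all 14. Among the members just inside the threshold were Fbxo38 (adjusted p = 0.000793) and Ube2z (adjusted p = 0.000833), and the nearest outside it was Rnf217 (adjusted p = 0.00123).

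**Figure D1:**
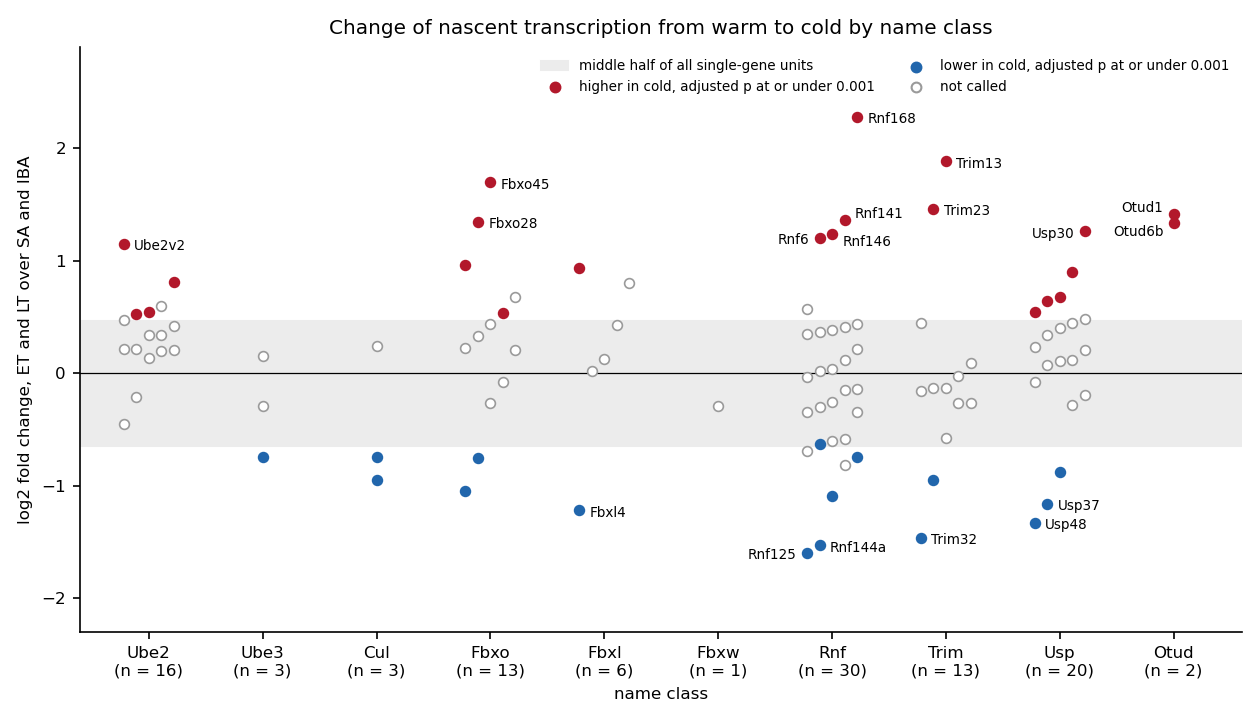
Each point is a member, placed by name class (x axis) and by its log2 fold change of ET and LT over SA and IBA (y axis). Red and blue points passed an adjusted p of 0.001, open points did not, and the grey band spans the range from the lower to the upper quartile of all 4705 single-gene units. Ube2 and Otud have red points and no blue ones, and Rnf168 lies highest at 2.28.

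**Figure D2:**
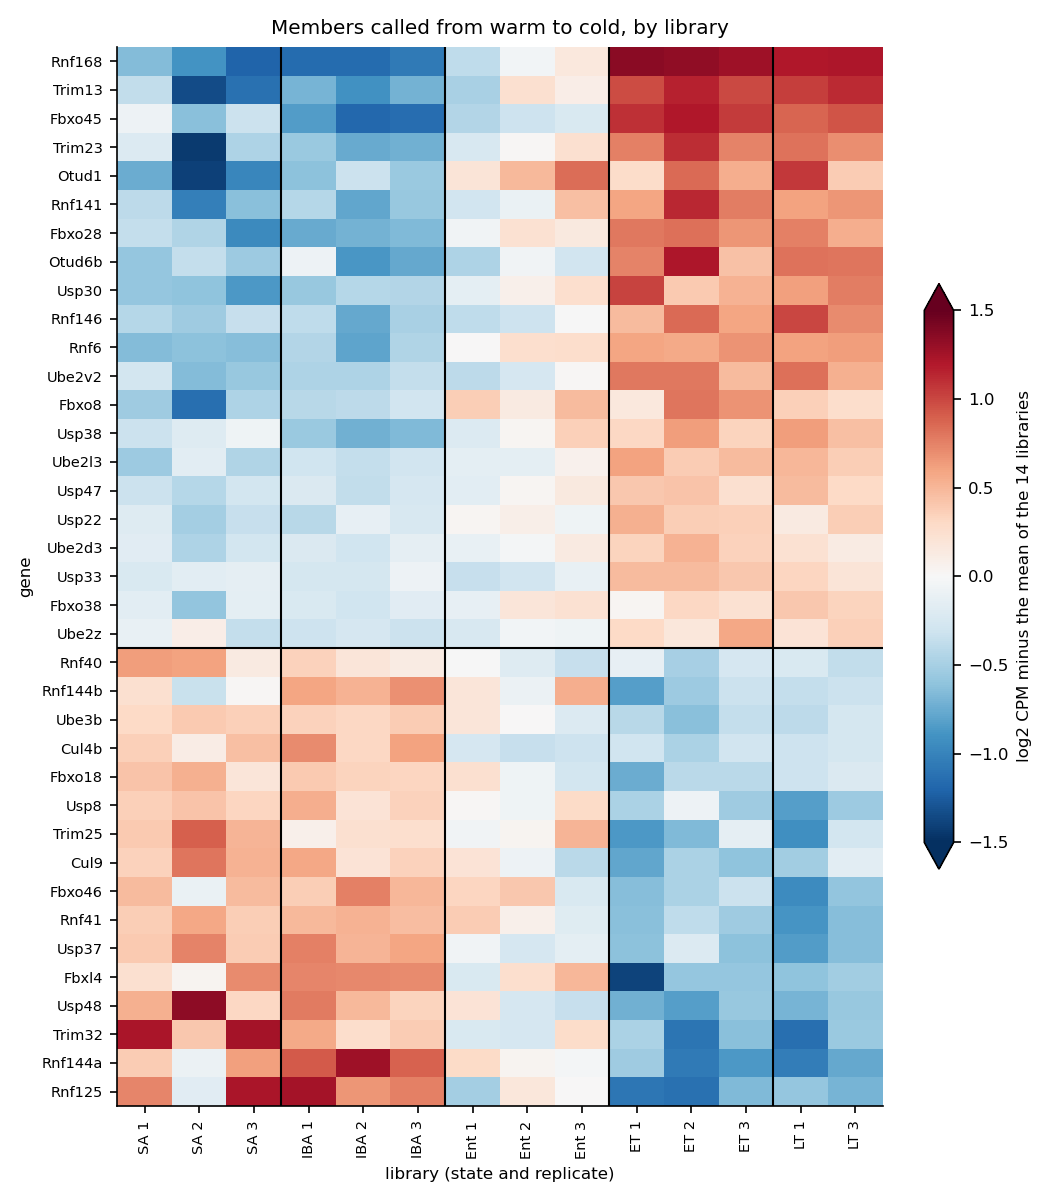
Rows are members called from warm to cold, ordered by log2 fold change, and columns are the 14 libraries by state and replicate. Color gives log2 CPM minus the mean over the libraries, red above it and blue below. The rows above the line turn from blue to red and the 16 rows below it from red to blue, with the Ent libraries near white for most genes.

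The conjugating enzymes that passed the test were all higher in the cold. Of 16 Ube2 genes, 4 rose from warm to cold and 0 fell, 25% called beside 37% of all units; 14 of 16 had a log2 fold change above 0, beside 2186 of all 4705 units. By other scalings 3 to 7 rose and 0 fell. The strongest was Ube2v2 (Itri6:79448057-79480489 of the HiC_Itri_2 genome), a catalytically inactive variant that pairs with Ube2n to build ubiquitin chains used in signaling. Its level was 59.5, 45.9 and 48.6 CPM in SA, 52.6, 52.3 and 56.2 in IBA, 55.0, 60.8 and 73.1 in Ent, 125, 125 and 101 in ET and 128 and 105 in LT. Every cold library was above every library of the other states, for a log2 fold change of 1.15 ± 0.12, adjusted p = 3.53e-06 (± is the SE of the fit here and below). Ube2l3, an E2 that works with HECT-type and RING-between-RING ligases, had 131, 172 and 141 CPM in SA, 156, 149.9 and 157 in IBA, 173, 173 and 201 in Ent, 291, 250.0 and 267 in ET and 271 and 248 in LT (log2 fold change 0.81 ± 0.09, adjusted p = 9.53e-06). The E2 with the most polymerase per length was Ube2d3, a promiscuous partner of many RING ligases, at 9.20 CPM per kb, the highest of all 107 members. It rose from 256 to 321 CPM in the warm libraries to 383 to 505 in the cold ones (log2 fold change 0.55 ± 0.09, adjusted p = 0.000143). Ube2z, which receives its ubiquitin from Uba6, rose by 0.52 ± 0.11 on the log2 scale (adjusted p = 0.000833). The Ube2d3 call was lost without LT replicate 1, and Ube2z kept its call in 2 of 14 fits with a library left out. Among paralogs of these genes, Ube2v1 had a log2 fold change of 0.34 ± 0.13, adjusted p = 0.0361 and Ube2d1 one of 0.34 ± 0.24, adjusted p = 0.228, neither called. Ube2w, which attaches ubiquitin to protein N-termini, had the lowest value of the class at -0.46 ± 0.10, adjusted p = 0.00182, also not called.

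Ube2a was highest in early torpor alone. Ube2a and Ube2b are the mammalian versions of yeast Rad6 and act in DNA damage tolerance and histone H2B ubiquitination. The Ube2a unit (Itri10:90647841-90656944) held 12.8, 14.6 and 13.4 CPM in SA, 16.5, 13.4 and 15.8 in IBA, 16.1, 15.6 and 22.4 in Ent, 32.7, 34.8 and 26.3 in ET and 11.0 and 14.4 in LT. Every ET library was above all others, while LT replicate 3 lay within the warm range and LT replicate 1 below it. The log2 fold change was 0.79 ± 0.20, adjusted p = 0.0102 from Ent to ET and -1.29 ± 0.23, adjusted p = 0.0458 from ET to LT, and the 5 states differed at an adjusted p of 0.000608. Ube2b had 429, 305 and 339.9 CPM in ET and 377 and 318 in LT, with a log2 fold change between them of -0.04 ± 0.17, adjusted p = 0.985.

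The HECT ligases and cullins that passed the test were lower in the cold. They were 1 of 3 Ube3 genes and 2 of 3 cullins, beside 37% of all units (18.7% lower). Ube3b fell in the cold, with 89.9, 96.0 and 93.5 CPM in SA, 92.9, 90.5 and 95.0 in IBA, 83.0, 73.6 and 63.3 in Ent, 54.6, 47.3 and 56.8 in ET and 55.5 and 60.8 in LT (log2 fold change -0.74 ± 0.10, adjusted p = 2.63e-05). The cold libraries lay below all others. Ube3a, the ligase lost in Angelman syndrome, had the highest level of the class at 5.50 CPM per kb and a log2 fold change of 0.15 ± 0.11, adjusted p = 0.241; Ube3c, a proteasome-bound ligase, had -0.30 ± 0.12, adjusted p = 0.0414. Neither was called. Among the 3 cullins, Cul4b and Cul9 fell and Cul5 did not pass the test (0.24 ± 0.10, adjusted p = 0.0411); with libraries scaled to uniquely mapped reads 0 cullins were called. Cul4b, a scaffold that binds substrates through Ddb1, had 46.0, 38.8 and 49.2 CPM in SA, 58.5, 44.7 and 54.6 in IBA, 30.1, 28.3 and 28.9 in Ent, 29.3, 25.9 and 29.4 in ET and 28.9 and 30.0 in LT. Its Ent libraries were already at the level of the cold ones: the log2 fold change was -0.85 ± 0.15, adjusted p = 0.00435 from IBA to Ent and -0.04 ± 0.15, adjusted p = 0.851 from Ent to ET. Cul9, a p53-binding cullin, had 39.8, 54.5 and 44.9 CPM in SA, 46.6, 36.0 and 39.8 in IBA, 36.0, 29.6 and 23.6 in Ent, 18.1, 22.4 and 20.6 in ET and 21.8 and 28.0 in LT (log2 fold change -0.95 ± 0.15, adjusted p = 0.000137). Its Ent libraries reached from the cold range to the lower edge of the warm one.

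F-box genes moved both ways, and 40% of the 20 were called, beside 37% of all units (18.3% higher, 18.7% lower). From warm to cold 4 of 13 Fbxo genes rose and 2 fell, 1 of 6 Fbxl genes rose and 1 fell, and Fbxw4, the single Fbxw unit, was not called at -0.30 ± 0.08, adjusted p = 0.00646, although its cold libraries (97.6 to 115 CPM) lay below its warm ones (121 to 137). Fbxo45, which forms an atypical ligase with Mycbp2, had 25.1, 17.1 and 21.0 CPM in SA, 14.8, 11.7 and 12.0 in IBA, 19.5, 21.3 and 22.5 in Ent, 56.3, 60.7 and 54.4 in ET and 48.2 and 50.8 in LT. The ET and LT libraries stood apart from all others, and Ent had only returned to the SA level. Its log2 fold change was 1.70 ± 0.12, adjusted p = 4.38e-07 from warm to cold and 1.43 ± 0.17, adjusted p = 0.000283 from Ent to ET. Fbxo28 had 151, 142 and 99.8 CPM in SA, 114, 118 and 122 in IBA, 186, 226 and 213 in Ent, 335, 341 and 305 in ET and 325 and 282 in LT (log2 fold change 1.34 ± 0.11, adjusted p = 8.5e-07). Here Ent was above the warm and below the cold libraries without overlap. Fbxo8 rose by 0.96 ± 0.14 on the log2 scale (adjusted p = 7.52e-05) and its Ent libraries overlapped the cold ones (178, 151 and 192 CPM, against 154 to 241 in the cold and 63.0 to 113 in the warm libraries). Fbxl4, a mitochondrial F-box protein that restrains mitophagy, fell: it had 85.3, 74.3 and 117 CPM in SA, 119, 118 and 118 in IBA, 61.5, 85.7 and 102 in Ent, 27.5, 48.1 and 48.2 in ET and 47.5 and 50.2 in LT (log2 fold change -1.22 ± 0.18, adjusted p = 8.58e-05). Fbxo46 (-1.04 ± 0.16, adjusted p = 9.64e-05) and Fbxo18 (-0.76 ± 0.12, adjusted p = 0.000115) fell as well, with the cold libraries below the warm ones in both. The most heavily transcribed F-box gene per length, Fbxo21 at 8.57 CPM per kb, was not called at 0.33 ± 0.16, adjusted p = 0.0838, nor were Fbxl20 at 0.43 ± 0.16, adjusted p = 0.0301 and Fbxl22 at 0.80 ± 0.20, adjusted p = 0.00337.

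The genes with the largest fold changes in the Fbxo and Rnf classes are near neighbors. The Fbxo45 unit lies on the minus strand at Itri7:124702711-124722009, and the Rnf168 unit lies on the plus strand at Itri7:124791383-124812223, 69.4 kb away. Between them is 1 unit, Wdr53, a WD-repeat gene on the plus strand at Itri7:124723297-124736251, whose unit begins 1287 nt from that of Fbxo45. Wdr53 rose too, from 23.9, 27.0 and 23.5 CPM in SA and 17.9, 17.3 and 23.6 in IBA to 24.7, 29.8 and 29.8 in Ent, 59.3, 57.4 and 45.8 in ET and 47.9 and 39.3 in LT (log2 fold change 1.14 ± 0.13, adjusted p = 9.69e-06). The flanking units did not rise: Pigx, next to Fbxo45, had -0.46 ± 0.14, adjusted p = 0.0112, and Pcyt1a, next to Rnf168, had -0.44 ± 0.09, adjusted p = 0.000993 and passed the test as lower. Wdr53 is the nearest upstream unit on the strand of Rnf168, and its part in the Rnf168 counts was not tested.

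Of 30 ring finger genes, the largest class, 4 rose and 5 fell, 30% called beside 37% of all units. Their median log2 fold change of -0.09 turned to 0.03 with total counts alone and 0.14 with uniquely mapped reads, so that its sign depended on the scaling. Rnf168, which ubiquitinates histone H2A at DNA double-strand breaks, rose more than any other member. It had 41.0, 34.7 and 28.2 CPM in SA, 29.0, 29.1 and 30.8 in IBA, 49.5, 62.7 and 71.9 in Ent, 165, 163 and 156 in ET and 149 and 149 in LT. The 3 levels, warm, Ent and cold, did not overlap, and the log2 fold change was 2.28 ± 0.12, adjusted p = 1.65e-07 from warm to cold, 1.05 ± 0.16, adjusted p = 0.00317 from IBA to Ent and 1.39 ± 0.16, adjusted p = 0.000272 from Ent to ET. Rnf8, the ligase that acts before Rnf168 at the same lesions, ranged from 72.8 to 116 CPM in the warm libraries and from 98.8 to 124 in the cold ones, and its log2 fold change of 0.36 ± 0.13, adjusted p = 0.0241 was not called. Rnf146, which recognizes poly(ADP-ribosyl)ated proteins, had 52.1, 48.4 and 55.4 CPM in SA, 54.0, 41.4 and 50.1 in IBA, 54.0, 56.4 and 70.1 in Ent, 97.8, 127 and 106 in ET and 140.1 and 115 in LT (log2 fold change 1.24 ± 0.12, adjusted p = 2.29e-06). Rnf6, with 42.2, 43.2 and 42.4 CPM in SA, 48.6, 38.3 and 48.4 in IBA, 66.0, 78.3 and 79.2 in Ent, 99.7, 97.8 and 105 in ET and 100.1 and 102 in LT, was among the least variable within a state (log2 fold change 1.20 ± 0.09, adjusted p = 5.76e-07). Rnf141 rose by 1.36 ± 0.17 on the log2 scale (adjusted p = 1.6e-05).

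Rnf125 and Rnf144a led the members that fell. Rnf125, a ligase that limits signaling from the RNA sensor RIG-I, was the ring finger gene with the highest level per length, 4.68 CPM per kb. Its libraries held 316, 169 and 445 CPM in SA, 452, 299 and 321 in IBA, 133, 213 and 191 in Ent, 89.2, 87.2 and 119 in ET and 127 and 117 in LT. SA and IBA were widely spread, and SA replicate 2 fell within the Ent range, yet all cold libraries lay below all others (log2 fold change -1.60 ± 0.23, adjusted p = 6.58e-05). Rnf144a, a RING-between-RING ligase, had 184, 133 and 216 CPM in SA, 267, 341 and 260.1 in IBA, 172, 145 and 138 in Ent, 97.8, 67.6 and 78.0 in ET and 68.6 and 83.1 in LT (log2 fold change -1.53 ± 0.15, adjusted p = 3.24e-06). IBA was the highest state, and Ent was within the SA range. Its paralog Rnf144b fell too (log2 fold change -0.74 ± 0.14, adjusted p = 0.000511), with 221, 211 and 236 CPM in IBA and 115 and 118 in LT, but SA replicate 2 at 117 CPM reached into the cold range. Rnf41, also known as Nrdp1, targets growth factor receptors and fell, with 52.3 to 60.5 CPM in the warm and 22.1 to 31.2 in the cold libraries (log2 fold change -1.09 ± 0.12, adjusted p = 7.54e-06). Rnf40, which with Rnf20 forms the ligase for histone H2B, fell by 0.63 ± 0.12 on the log2 scale (adjusted p = 0.000603), whereas Rnf20 was not called at -0.25 ± 0.13, adjusted p = 0.114.

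**Figure D3:**
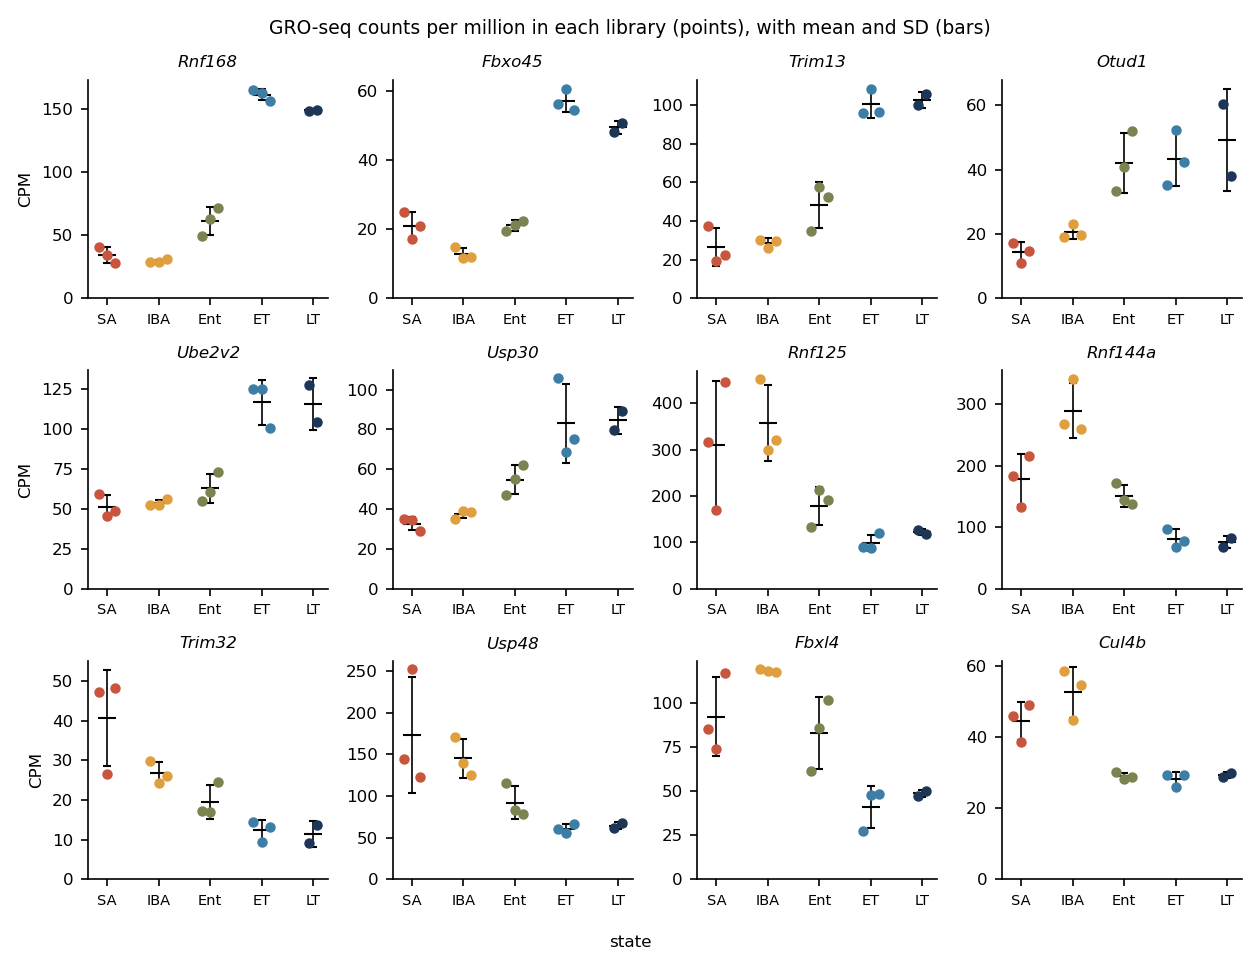
Each panel is a gene, with the state on the x axis and CPM from 0 on the y axis. Points are libraries and bars show the mean and SD of the state (n = 3, for LT n = 2). Read row by row, the cold points lie above all warm points in the first 6 genes, Rnf168 to Usp30. In the last 6, Rnf125 to Cul4b, they lie below them. Ent stands near the cold level for Otud1 and Cul4b.

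Of 13 tripartite motif genes, 2 rose and 2 fell, 30.8% called beside 37% of all units. Their median log2 fold change of -0.13 turned to 0.09 with uniquely mapped reads. Trim13, a ligase anchored in the endoplasmic reticulum (Itri4:159493374-159507095), had 37.6, 19.3 and 22.5 CPM in SA, 30.1, 25.9 and 29.9 in IBA, 34.7, 57.4 and 52.3 in Ent, 95.9, 108 and 96.4 in ET and 99.8 and 106 in LT. Its log2 fold change of 1.88 ± 0.18, adjusted p = 1.95e-06 was second to that of Rnf168. Trim23, which carries an ARF-type GTPase domain beside its RING, had 63.1, 27.0 and 52.6 CPM in SA, 49.4, 42.9 and 44.1 in IBA, 61.3, 73.8 and 85.8 in Ent, 123, 156 and 121 in ET and 127 and 118 in LT (log2 fold change 1.46 ± 0.18, adjusted p = 1.98e-05). Trim32, mutated in a limb-girdle muscular dystrophy, fell from 47.2, 26.7 and 48.1 CPM in SA and 29.8, 24.2 and 26.2 in IBA through 17.2, 16.9 and 24.5 in Ent to 14.6, 9.43 and 13.1 in ET and 9.22 and 13.7 in LT (log2 fold change -1.47 ± 0.21, adjusted p = 5.18e-05). Trim25, which activates RIG-I, had the highest level of the class at 4.49 CPM per kb and fell, with 79.3 to 140.3 CPM in the warm and 39.8 to 68.6 in the cold libraries (log2 fold change -0.95 ± 0.18, adjusted p = 0.000486). Both risers were higher in ET and LT than in every Ent library, and for both fallers every cold library was below every Ent library.

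Among deubiquitinases 5 of 20 Usp genes rose and 3 fell, 40% called beside 37% of all units (18.3% higher, 18.7% lower). Both Otud genes rose. Usp30, which sits in the mitochondrial outer membrane and opposes parkin-driven mitophagy, had 34.9, 34.4 and 28.9 CPM in SA, 35.2, 38.9 and 38.5 in IBA, 47.3, 55.0 and 62.1 in Ent, 106, 68.7 and 75.0 in ET and 79.8 and 89.4 in LT (log2 fold change 1.26 ± 0.13, adjusted p = 4.28e-06). The 3 levels did not overlap. Usp38 had 99.5, 109 and 119 CPM in SA, 84.7, 75.2 and 78.7 in IBA, 108, 127 and 159.8 in Ent, 154, 191 and 156 in ET and 192 and 169.8 in LT (log2 fold change 0.90 ± 0.11, adjusted p = 2.02e-05), with IBA the lowest state. Usp47, which stabilizes DNA polymerase beta, rose, with 263 to 303 CPM in the warm and 416 to 488 in the cold libraries (log2 fold change 0.68 ± 0.09, adjusted p = 2.33e-05). Usp22, the H2B deubiquitinase of the SAGA complex and the Usp gene with the highest level per length (3.27 CPM per kb), rose, with 88.6 to 116 CPM in the warm and 139 to 183 in the cold libraries (log2 fold change 0.64 ± 0.09, adjusted p = 6.5e-05). Usp33 rose by 0.54 ± 0.08 on the log2 scale (adjusted p = 0.000109), and its paralog Usp20 was not called at 0.44 ± 0.12, adjusted p = 0.0062.

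Usp37, Usp48 and Usp8 fell. Usp37, which stabilizes cyclin A, had 84.4, 108 and 83.8 CPM in SA, 109, 91.6 and 97.4 in IBA, 62.3, 54.1 and 58.4 in Ent, 42.0, 56.0 and 42.1 in ET and 36.0 and 41.5 in LT (log2 fold change -1.17 ± 0.12, adjusted p = 4.13e-06). Ent lay below all warm libraries and overlapped ET at its edge. Usp48 fell, with 123 to 252 CPM in the warm and 56.0 to 67.3 in the cold libraries (log2 fold change -1.33 ± 0.19, adjusted p = 5.17e-05), with SA replicate 2 the highest library. Usp8, which deubiquitinates receptors on endosomes and is known to stabilize Rnf41, fell by 0.88 ± 0.12 on the log2 scale (adjusted p = 4.11e-05). Otud1 (Itri9:23203381-23210444) is the shortest unit among the members and held 17.4, 11.0 and 14.7 CPM in SA, 19.0, 23.2 and 19.8 in IBA, 33.3, 40.8 and 51.9 in Ent, 35.3, 52.2 and 42.3 in ET and 60.5 and 38.0 in LT (log2 fold change 1.42 ± 0.18, adjusted p = 2.46e-05). Ent lay above all warm libraries and overlapped the cold ones, with a log2 fold change of 1.02 ± 0.24, adjusted p = 0.016 from IBA to Ent and of 0.04 ± 0.24, adjusted p = 0.911 from Ent to ET. Otud6b had 23.6, 27.5 and 24.1 CPM in SA, 33.2, 19.2 and 20.6 in IBA, 25.5, 34.0 and 28.8 in Ent, 58.8, 81.7 and 47.6 in ET and 61.7 and 61.1 in LT (log2 fold change 1.33 ± 0.18, adjusted p = 2.98e-05). Here Ent overlapped the warm libraries and not the cold ones, and the log2 fold change from Ent to ET was 1.09 ± 0.23, adjusted p = 0.00504.

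For most called members entrance stood between the warm and cold states. The mean of Ent lay between the means of warm and cold, on the log2 scale, in 21 of 22 risers and 16 of 16 fallers, where it did so in 92.2% of all rising and 89.1% of all falling units. Over the 22 risers the median log2 fold change was 0.59 for the step from IBA into Ent, then 0.58 into ET and -0.07 into LT, and over the 16 fallers -0.42, -0.61 and 0.03. All rising units had 0.45, 0.63 and -0.01, and all falling units -0.54, -0.72 and -0.07. Few single steps passed the threshold. From Ent to ET, Rnf168 and Fbxo45 rose and 0 members fell, 2 of 107 beside 2.3% of all units (1.13% higher, 1.17% lower); both calls were lost without Ent replicate 1 or 2 or any ET library. From IBA to Ent 0 members passed in edgeR, beside 0.0425% of all units; 33 had an unadjusted p of 0.05 or less (1570 of all 4705 units), 15 an adjusted p of 0.05 or less (9 higher, 6 lower, beside 16.7% of all units, 8.57% higher and 8.12% lower), and DESeq2 called 8. The 9 were Rnf168, Otud1, Trim56, Fbxo28, Trim13, Usp38, Fbxo45, Rnf6 and Fbxo8, and the 6 were Rnf125, Rnf144a, Cul4b, Usp37, Usp12 and Ube2w.

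**Figure D4:**
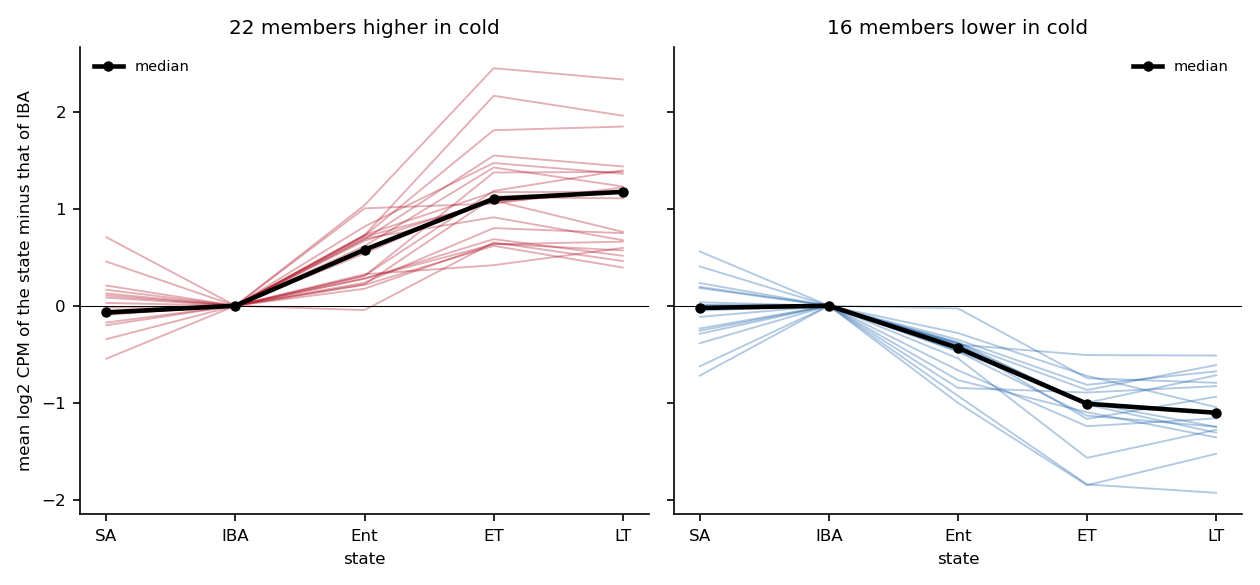
Thin lines are members called from warm to cold, 22 higher on the left and 16 lower on the right; the y axis is the mean log2 CPM of a state minus that of IBA and the x axis is the state. The black line is the median of the genes. Both medians leave 0 in Ent, move further in ET and lie close to their ET level in LT.

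From IBA to LT, 11 members rose and 5 fell, 16 of 107 beside 17.6% of all units (9.46% higher, 8.18% lower). The IBA and LT libraries were collected in different seasons, so this contrast also holds a difference in season. At an adjusted p of 0.05 or less 34 were higher and 22 lower, 56 in all, beside 50.7% of all units (24.1% higher, 26.6% lower). The risers were Rnf168, Fbxo45, Trim13, Trim23, Rnf146, Fbxo28, Usp38, Usp30, Rnf6, Ube2v2 and Ube2l3, with log2 fold changes from 0.75 to 2.33, and the fallers were Rnf144a, Usp37, Fbxo46, Rnf41 and Usp8, from -1.93 to -1.04. With total counts alone the calls were 14 higher and 3 lower, and with uniquely mapped reads 15 and 3. The count was 3 without LT replicate 1 and 8 without LT replicate 3, where the LT library left was assumed to vary like the other groups, and 10 without IBA replicate 2 or IBA replicate 3. With season as a covariate 6 were called, namely Rnf168, Fbxo45, Rnf146, Usp38 and Rnf6 as higher and Rnf144a as lower. In the season that supplied both LT libraries, the mean of LT differed from SA replicate 1 in the same direction as from warm to cold in 38 of 38 called members, and from Ent replicates 1 and 2 in 37 of 38. The members were called with these libraries in the fit, which largely fixed those directions, so the counts are a description.

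The warm states before and during the hibernation season differed in few members at this depth. From SA to IBA 0 members passed in edgeR, beside 0.0213% of all units; 16 had an unadjusted p of 0.05 or less (1103 of all 4705 units) and DESeq2 called 2. At an adjusted p of 0.05 or less 4 members were lower in IBA and 0 higher, beside 5.57% of all units (2.7% higher, 2.87% lower). Trim2, which acts on neurofilament light chain in neurons, was the clearest, with 261, 265 and 215 CPM in SA and 124, 154 and 127 in IBA (log2 fold change -0.87 ± 0.17, adjusted p = 0.00977), and no overlap between these states. Its Ent, ET and LT libraries (176, 120.5 and 145, then 123, 153 and 158, then 144 and 173 CPM) stayed near the IBA range. The other 3 were Rnf103, Rnf138 and Fbxo45.

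From ET to LT 0 members passed at an adjusted p of 0.001, beside 0% of all units; 6 had an unadjusted p of 0.05 or less (436 of all 4705 units), and DESeq2 called 1. At an adjusted p of 0.05 or less Ube2a was the single member, beside 0.34% of all units, all 16 of them lower in LT. These 16 units were short, from 4.56 to 10.6 kb with a median of 6.74 kb, against 36.2 kb over all single-gene units and 39.4 kb over the members. All 446 single-gene units of up to that length had a median log2 fold change of -0.28 from ET to LT. The 4 members of that length had a median of 0.21. Among the 16 was Rps27a, which encodes ubiquitin fused to a ribosomal protein and is not a member by name (Itri12:26935433-26940620). Rps27a had 25.8, 32.2 and 23.8 CPM in SA, 30.4, 29.1 and 30.2 in IBA, 49.8, 49.1 and 48.9 in Ent, 37.3, 49.9 and 34.6 in ET and 11.0 and 9.28 in LT, with a log2 fold change from ET to LT of -2.00 ± 0.21, adjusted p = 0.00257, the smallest adjusted p of the 16. Both LT libraries were below all others. Of the 4 members no longer than 10.6 kb, Ube2a had -1.29, and Otud1 (0.19 ± 0.26, adjusted p = 0.938), Fbxl22 (0.28 ± 0.29, adjusted p = 0.907) and Rnf187 (0.24 ± 0.26, adjusted p = 0.913) were not called. The unit before Ube2a on its strand, Slc25a5, 90856 nt upstream, had 60.8, 71.3 and 61.3 CPM in ET and 13.2 and 26.1 in LT (-1.71 ± 0.33, adjusted p = 0.0545), and its part in the Ube2a counts was not tested.

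**Figure D5:**
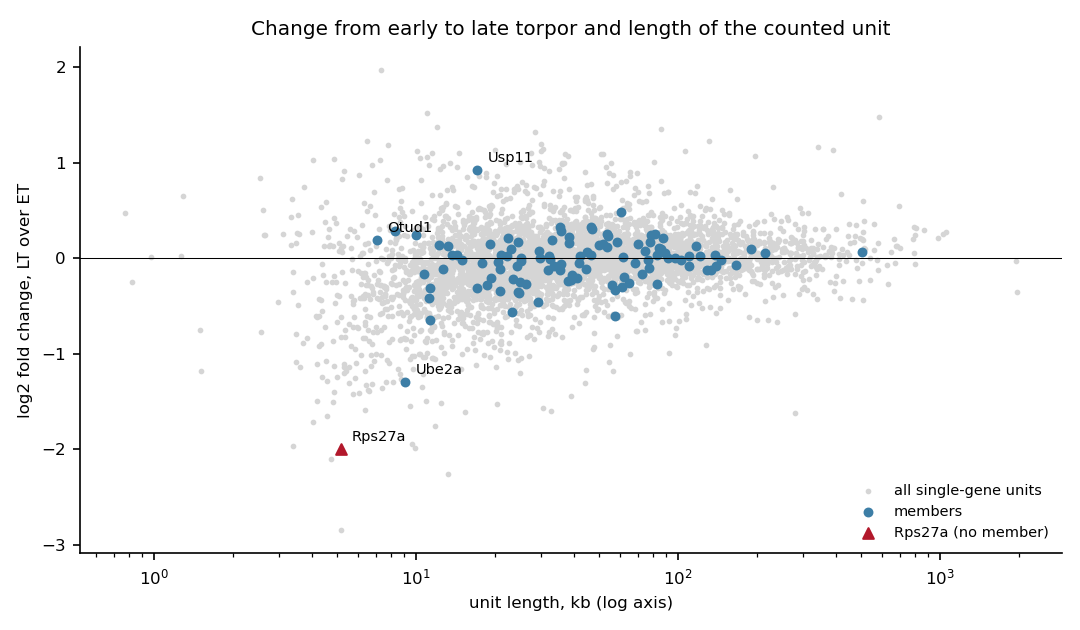
The x axis is the length of the counted unit in kb on a log axis and the y axis the log2 fold change of LT over ET. Grey points are all 4705 single-gene units, blue points the 107 members, and the red triangle is Rps27a. Ube2a at -1.29 and Rps27a at -2.00 are among the 16 units lower in LT at an adjusted p of 0.05, none of them longer than 10.6 kb.

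Genes of the pathway outside the name rule were looked up from a list of 188 names, of which 84 had a single-gene unit. Ubb, Uba1 and Uba6 were not among them. From warm to cold 20 of the 84 rose and 4 fell, 28.6% called beside 37% of all units (18.3% higher, 18.7% lower), with a median log2 fold change of 0.15. Partners of SCF and cullin ligases had 8 higher and 2 lower of 17, other ligases 8 and 1 of 40, a group of other deubiquitinases and SUMO proteases 3 and 1 of 17, and shuttle and extraction factors 1 and 0 of 6; of 3 activating enzymes 0 were called, and 2 had an adjusted p of 0.05 or less. Of the 4 calls in the group of 17, Senp2, which rose, and Senp7, which fell (-0.80 ± 0.10, adjusted p = 2.75e-05), encode proteases that remove SUMO and not ubiquitin, and the other 2, Vcpip1 and Bap1, rose. Ddb1, the adaptor of Cul4 ligases, had 120.0, 95.2 and 103 CPM in SA, 90.1, 90.5 and 102 in IBA, 109, 121 and 104 in Ent, 213, 216 and 253 in ET and 285 and 221 in LT (log2 fold change 1.26 ± 0.10, adjusted p = 6.72e-07), the opposite direction to Cul4b. Subunits of the COP9 signalosome, which removes Nedd8 from cullins, went separate ways. Cops5, its catalytic subunit, had 35.9, 52.5 and 31.5 CPM in SA, 49.4, 40.6 and 34.8 in IBA, 29.2, 32.4 and 22.7 in Ent, 6.92, 11.6 and 12.4 in ET and 8.47 and 6.63 in LT (log2 fold change -2.20 ± 0.21, adjusted p = 2.57e-06). Cops7a fell as well (-1.25 ± 0.13, adjusted p = 5.3e-06), whereas Cops2 (0.64 ± 0.09, adjusted p = 7.84e-05), Cops3 (0.85 ± 0.11, adjusted p = 1.98e-05) and Cops8 (1.07 ± 0.14, adjusted p = 2.83e-05) rose. Rlim, an X-linked RING ligase, rose, with 94.3 to 113 CPM in the warm and 201 to 276 in the cold libraries (log2 fold change 1.18 ± 0.09, adjusted p = 6.2e-07), and March7 (0.82 ± 0.09, adjusted p = 5.26e-06), the deubiquitinase Vcpip1 (0.97 ± 0.10, adjusted p = 5.74e-06) and Ubxn4, a cofactor of the extraction ATPase p97 (0.78 ± 0.09, adjusted p = 6.49e-06), rose too.

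The risers lay on 11 chromosomes and the fallers on 13. Unit length had a median of 32.3 kb among the risers and 48.5 kb among the fallers, beside 26.7 and 32.8 kb among all rising and falling units, and the 26 longest members, of at least 77.4 kb, held 5 called genes, of which 1 rose, near the 269 called and 59 higher of the 1176 longest units of the table. Median level was 2.87 CPM per kb among the risers and 1.65 among the fallers, beside 2.87 and 1.92 among all such units. An upstream unit on the same strand ended within 20 kb of 1 of 22 risers, and that unit was not called. Among the 16 fallers 4 had such a unit, 2 of which rose in the cold while the member fell. Of all 107 members 13 had such a unit, and the share over all single-gene units is not given here. The part of upstream transcription in the counts of members was not tested.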

How the data were processed

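The deposited table holds raw counts per gene body, which the authors obtained by trimming reads with cutadapt, aligning them with BWA to the HiC_Itri_2 genome, keeping uniquely aligned reads, redefining gene bodies from nascent transcription with fstitch and counting with featureCounts; tool versions and the strand setting of the counting were not given in the sources used here. Genes that overlapped after redefinition share 1 unit with joined names. LT replicate 2 was not used here. All 6324 units of 14 libraries (3713883 to 8884763 counts) were fitted at once with edgeR 4.0.16 (R 4.3.3; TMM, quasi-likelihood F-test), with Benjamini-Hochberg adjustment over all units; members were called at 0.001. The warm to cold contrast is the mean of ET and LT minus the mean of SA and IBA. SE is the absolute log2 fold change divided by the square root of F. Contrasts share libraries. The scripts were tested on simulated data. DESeq2 1.42.0 and limma 3.58.1 were alternatives. Replicates are separate animals per the labels, and the season came from the study's animal table. The members and lists were chosen with earlier results of these data known. The rule named, per class, up to 4 members with the smallest p among the 5 states and the member with the highest CPM per kb, per contrast up to 3 called members with the largest rise and up to 3 with the largest fall, and from the other pathway genes a few fixed names, among them Ubb, Rps27a, Uba1 and Uba6, and up to 8 with the smallest p among the 5 states. Other genes, among them paralogs, further called members and neighboring units, were named after their values were seen. Some genes are counted but not reported here by name.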

Additional observations from a re-analysis of the deposited data

Results flagged for a closer look

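Units that join overlapping genes lie outside the name rule, yet 49 of them carry 51 names of these classes. From warm to cold 15 of the 49 passed the adjusted p of 0.001 in edgeR, 11 higher and 4 lower. Beside this stand 37% of all single-gene units (18.3% higher, 18.7% lower), and the share over all 1619 joined units is not given here. A count in such a unit cannot be assigned to either gene. The 11 higher units were flagged because their signal lies outside the comparisons above and above the level of the warm libraries. Their log2 fold changes were 1.92 for the unit with Fbxo10, 1.91 for that with Fbxl18, 1.46 for that with Trim17 and Trim11, 1.28 for that with Trim72 and 1.23 for a unit that contains Trim26. Smaller values were 0.83 for the unit with Trim8, 0.68 for that with Rnf13, 0.68 for that with Fbxl8, 0.64 for that with Fbxo22 and Ube2q2, 0.54 for that with Ube2c and 0.43 for that with Rnf14. The 4 lower units had -2.06 for that with Fbxo31, the largest change in either direction among the 49, -1.52 for that with Otud7b, -1.12 for that with Usp21 and -0.87 for that with Fbxo9. Fbxo10 shares its unit with Tomm5 and Fbxl18 with Actb, which are known to be widely expressed genes. The paper shows Actb and the gene downstream of it among its examples of transcription that it proposes runs on past an upstream gene in torpor. Neither gene of that pair was differentially expressed in its RNA-seq data.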

How the results depend on the processing

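From warm to cold all 38 calls kept their sign in every alternative fit; 18 of 22 higher and 9 of 16 lower calls were made with any library left out, and the count was 27 to 37 in those fits, 71 at an adjusted p of 0.05 and 20 with at least a 2-fold change. Among the 5 states (29 calls), DESeq2 gave 50, the replicate block 18, an adjusted p of 0.05 65, and leaving out a library 14 to 28. From IBA to LT (16), DESeq2 gave 32, the block 10, season as covariate 6, an adjusted p of 0.05 56, and leaving out a library 3 to 19. From Ent to ET (2), DESeq2 gave 14, uniquely mapped reads as library size 4, an adjusted p of 0.05 35, and leaving out a library 0 to 2. From IBA to Ent, SA to IBA and ET to LT (0 each), DESeq2 gave 8, 2 and 1, an adjusted p of 0.05 gave 15, 4 and 1, and leaving out a library 0. The cause of these shifts was not tested. Of 1202 alternative values for named genes, 1137 stayed on their side of the threshold, 63 lost the call, 2 gained it and 0 turned. The replicate numbers do not pair the animals: same-numbered libraries of different states had a median correlation of deviations of 0.04, from -0.27 to 0.26, so the block is a check only. The all-unit median from warm to cold was -0.07, 0.05 with total counts alone and 0.16 with uniquely mapped reads. Counting error weighs most on the members with the fewest reads, the smallest count being 40, and 2 LT libraries limit the precision of every contrast with LT.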
